A study of Mus musculus with 24 samples.

Results

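Brown and white fat cell cultures that had both been differentiated with epigallocatechin gallate (EGCG), the main catechin of green tea, were compared with each other on day 8. The comparison used 6 of the 24 RNA sequencing libraries of the series, chosen by their labels: 3 libraries of BAT EGCG day 8 and 3 libraries of WAT EGCG day 8. The cells were stromal vascular cells of 6-week-old C57BL/6 mice, freed with collagenase from interscapular brown adipose tissue (BAT) or inguinal white adipose tissue (WAT). They were kept for 4 days in an induction medium and for 4 more days in a differentiation medium with insulin and T3, a thyroid hormone. The labels give no dose of EGCG and do not say whether the 3 libraries of a group came from separate isolations. The p-values therefore measure the spread between libraries within the 8 groups, which may be technical. Day 8 control cells of both depots were treated with the solvent DMSO. These cells and EGCG-treated cells of day 4 (6 libraries each) were used to ask whether the depot difference was the same there. All 24 libraries, day 4 controls included, also set the gene filter and the estimate of the spread behind every call. With the spread estimated from the 6 libraries alone, 6877 genes were called in place of 6532.

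White adipocytes store triglyceride in 1 large droplet and secrete leptin, adiponectin and other hormones. Brown adipocytes hold many small droplets and many mitochondria, and burn fuel for heat through the uncoupling protein UCP1. The stromal vascular fraction holds their precursors together with fibroblasts and some vascular, nerve sheath and immune cells. Because precursors keep the positional gene programme of their place in the body, the depots can also be told apart by genes that have no metabolic role. In bulk RNA of such a culture, fewer cells of a type and less RNA per cell cannot be told apart.

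Values are FPKM, the reads of a gene scaled by the length of its transcript and by the depth of the library. The libraries of replicates 1 and 2 (first table) held 46836812 and 52893848 reads in BAT and 52009056 and 39858181 in WAT. Replicate 3 was deposited in a second table that had been scaled separately, with 17261888 reads in BAT and 41675643 in WAT. In that WAT library 61.01% of the reads lay on 5 genes (Prl3d1, 1700007K09Rik, 4930555F03Rik, 6030405A18Rik and Gm4675), 3 of them with the identical count of 3292684 reads. In every other library these genes together took at most 1.92e-05% of the reads. They were left out and the values of that library were rescaled to its remaining 16249394 reads. After this step 13 further genes, none of them among those tested, stood at least 100-fold above every other library. Within the first table, log2 values of replicates 1 and 2 differed across tested genes with an SD of 0.170 in BAT and 0.178 in WAT, whereas replicate 3 differed from replicate 1 with an SD of 0.645 and 0.642. Values are therefore given for each library in the order of replicates 1, 2 and 3, and libraries were compared within a table. The second table has 1 library per group and allows no test alone. Differences are on the log2(FPKM + 1) scale, BAT minus WAT, so that a positive value is higher in BAT, and for genes of low level this scale gives less than the true change.

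Of 13925 genes tested with limma, 6532 were called at an adjusted p under 0.05 (46.9%), 4274 higher in BAT (30.7%) and 2258 higher in WAT (16.2%). Most differences were small: 385 genes (2.76%) were called and differed at least 2-fold, 166 of them higher in BAT and 219 higher in WAT. The libraries of the depots did not overlap within either table for 8814 genes (63.3%). The split between directions moved with the scaling, to 3342 higher in BAT and 2766 higher in WAT with median-ratio scaling and to 3171 and 2727 with quantile normalization. With a pseudocount of 0.1 in place of 1, 812 genes were called and differed at least 2-fold. Without WAT replicate 3, 3864 genes were called higher in BAT and 2103 higher in WAT, and from the first table alone 3441 and 1972. In control cells 35.2% of all genes were called higher in BAT and 23.8% higher in WAT, and the change of the depot difference with EGCG was called towards BAT for 23.8% and towards WAT for 22.4%. Counts of list members are to be read against these shares of all genes.

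**Figure D1:**
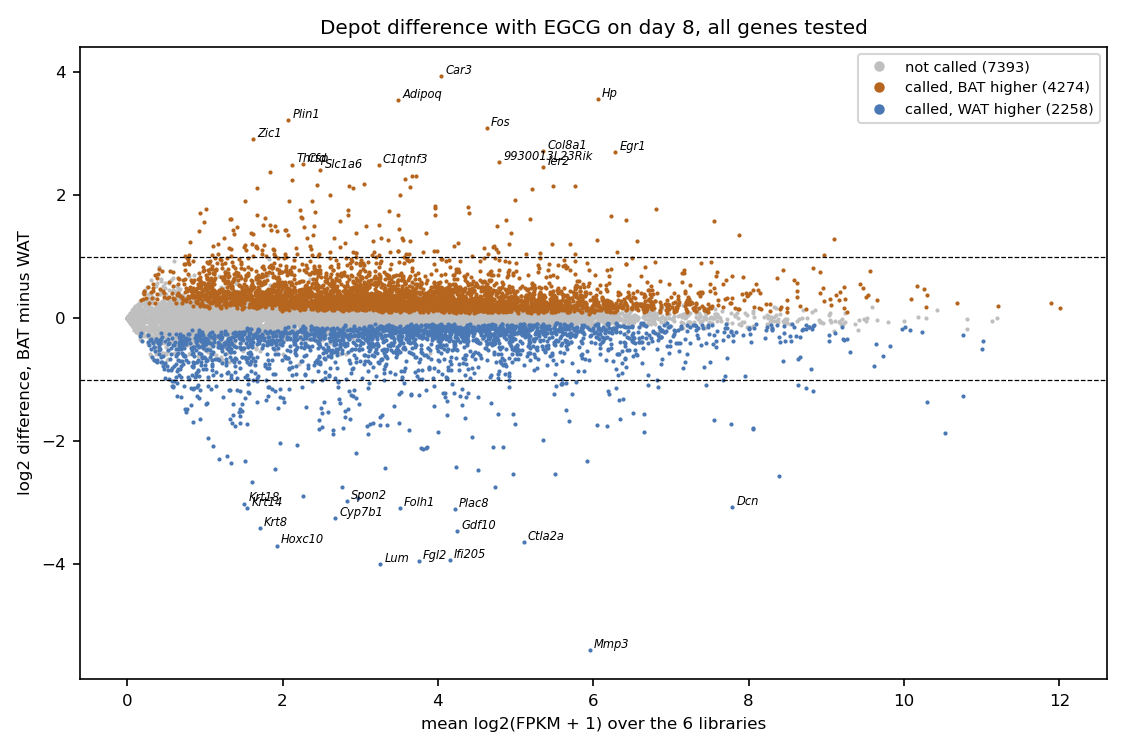
Depot difference of every tested gene with EGCG on day 8. The x axis is the mean log2(FPKM + 1) over the 6 libraries and the y axis the log2 difference, BAT minus WAT; brown points were called higher in BAT (4274), blue points higher in WAT (2258), grey points not called (7393), dashed lines mark 2-fold, and 29 named genes carry their symbols, with Mmp3 the lowest point at -5.41 and Car3 the highest at 3.95.

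The gene that differed most was Mmp3 (chromosome 9, 7445822 to 7455972, NCBIM37 build), which encodes stromelysin 1, a secreted protease that degrades matrix proteins. Mmp3 had 374, 448 and 393 FPKM in WAT cells and 9.38, 7.52 and 8.83 FPKM in BAT cells. Every WAT library lay far above every BAT library, at 48.6-fold in the first table and 44.5-fold in the second (log2 difference -5.41 ± 0.142 SE, adjusted p 6.58e-16). Control cells showed a difference of -5.26, and the change of the difference with EGCG was -0.14, adjusted p 0.6. The promoter of Mmp3 in the RefSeq table (GRCm38.p6, chr9:7445572-7445871, plus strand, 250 bases before to 50 after the start) is shown because the gene leads the comparison. It was searched for the letters bound by AP-1, the Fos and Jun dimer known to act on this protease family, and for a TATA box. The capitals mark TGAGTCA at -46 to -40 and TATAAA at -7 to -2 from that start.
Mmp3: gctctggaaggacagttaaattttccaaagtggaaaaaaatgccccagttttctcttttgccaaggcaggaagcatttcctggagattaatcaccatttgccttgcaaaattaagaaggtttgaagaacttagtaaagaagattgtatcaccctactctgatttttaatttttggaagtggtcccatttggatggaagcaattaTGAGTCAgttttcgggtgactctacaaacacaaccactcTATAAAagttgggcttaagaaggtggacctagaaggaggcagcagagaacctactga
TGAGTCA or its reverse complement TGACTCA occurred in 5.20% of the 32851 promoters of the table, and TATAAA, searched on the strand of the gene, in 8.32%. The AP-1 letters were present in 4 of 15 protease and inhibitor genes found in the table (Mmp3, Mmp10, Mmp12 and Mmp13) and TATAAA in 5 of 15. These motifs were chosen after the values had been seen. Of the Fos and Jun genes, Fos (3.10), Junb (1.60), Fosb (0.52), Jun (0.50) and Fosl2 (0.23) were called higher in BAT. Jund (-0.25) was called higher in WAT and Fosl1 (0.21) was not called, and a role of AP-1 in the Mmp3 difference was not tested. Besides Mmp3, Mmp12 (-0.53, adjusted p 0.047) was called higher in WAT, and Mmp10 (-0.033, adjusted p 0.81) and Mmp13 (-0.032, adjusted p 0.9) were not called.

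Of 26 matrix genes other than collagens, 16 were called higher in WAT and 7 higher in BAT (13 and 9 with quantile normalization), with a median difference of -0.32 against 0.059 over all genes tested. The largest differences were in small leucine-rich proteoglycans, which bind collagen fibrils and set their spacing. Lumican (Lum, chromosome 10, 97028135 to 97035337) had 37.6, 43.1 and 31.9 FPKM in WAT cells and 1.46, 1.49 and 1.23 FPKM in BAT cells (log2 difference -4.00 ± 0.144 SE, adjusted p 5.27e-14). Decorin (Dcn, chromosome 10, 96942245 to 96980777), far more abundant, had 661, 679 and 588 FPKM in WAT cells and 79.0, 79.1 and 68.6 FPKM in BAT cells (log2 difference -3.07 ± 0.0778 SE, adjusted p 4.94e-16). Neither gene's libraries overlapped between depots, but no overlap within a table was a condition for naming genes by the size of their difference. Osteoglycin (Ogn, -1.86) of the same family went the same way, whereas asporin (Aspn, 1.04) and fibromodulin (Fmod, 0.87) were higher in BAT. Tenascin X (Tnxb, -2.12), elastin (Eln, -1.72), dermatopontin (Dpt, -1.33), thrombospondin 2 (Thbs2, -1.09) and fibulin 1 (Fbln1, -1.05) were also at least 2-fold higher in WAT. Thrombospondin 1 (Thbs1, 0.77) and tenascin C (Tnc, 0.40) were higher in BAT.

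Of 21 collagen genes, 8 were called higher in BAT and 9 higher in WAT. The main fibrillar collagens of fibroblasts (types I and III) and 2 chains of the microfibrillar type VI were higher in WAT. Col3a1 had 2627, 2893 and 2595 FPKM in WAT cells and 1171, 1096 and 1091 FPKM in BAT cells (log2 difference -1.27 ± 0.102 SE, adjusted p 5.76e-09), and Col1a1 (-0.61), Col1a2 (-0.78), Col6a1 (-1.01) and Col6a2 (-1.12) were called in that direction. The short-chain collagen Col8a1 (chromosome 16, 57624371 to 57754850) went the other way with 108, 119 and 87.9 FPKM in BAT cells and 14.2, 14.1 and 16.5 FPKM in WAT cells (log2 difference 2.73 ± 0.115 SE, adjusted p 5.35e-13), together with the fibril-associated Col14a1 (1.73) and Col12a1 (0.75). Among 20 proteases and inhibitors, 10 were called higher in WAT and 2 higher in BAT. Mmp2 (-1.14), Mmp11 (-1.24), Adamts2 (-1.24), the procollagen N-proteinase, and the collagen-degrading cathepsin Ctsk (-1.08) were at least 2-fold higher in WAT. The inhibitor Timp3 was higher in BAT, with 341, 355 and 278 FPKM in BAT cells and 110.0, 108 and 105 FPKM in WAT cells (log2 difference 1.57 ± 0.149 SE, adjusted p 5.93e-08).

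Of 19 surface markers of adipose precursors, 9 were called higher in WAT and 4 higher in BAT, with a median of -0.33. Ly6a, which encodes the progenitor antigen SCA-1, had 523, 506 and 449 FPKM in WAT cells and 135, 146 and 144 FPKM in BAT cells (log2 difference -1.79 ± 0.113 SE, adjusted p 2.08e-10). Cd34 (-1.89), Ly6c1 (-2.09), Pi16 (-1.09) and Pdgfra (-0.89), the receptor that defines adipose progenitors, went the same way. Fmo2, a flavin monooxygenase on this list, had 120.2, 119 and 90.4 FPKM in WAT cells and 18, 17.2 and 18.7 FPKM in BAT cells (log2 difference -2.54 ± 0.202 SE, adjusted p 5.41e-09) and 100.3, 91.4 and 78.8 FPKM in BAT and 49.1, 118 and 102 FPKM in WAT controls. The depots differed with EGCG and overlapped in controls, where the difference was 0.10 with an adjusted p of 0.71 (change of the difference -2.63, adjusted p 3.78e-07). In BAT cells the mural receptor Pdgfrb (0.56), the integrin Itgb1 (0.48), Anxa3 (0.59) and tissue factor (F3, 0.38) were higher. Ly6a and Ly6c1 belong to a family with close copies, and how reads shared between copies were counted is not given in the sources used here.

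Among the other named genes higher in WAT, Fgl2 (fibrinogen-like protein 2), Ifi205 (an interferon-inducible HIN200 protein), Ctla2a (a cathepsin inhibitor), Gdf10 (a BMP family ligand), Cyp7b1 (oxysterol hydroxylase), Plac8, Folh1 (folate hydrolase) and Spon2 (spondin 2) had log2 differences from -3.95 in Fgl2 to -2.98 in Spon2. Gdf10 had 63.1, 65.8 and 57.7 FPKM in WAT cells and 4.63, 4.81 and 4.75 FPKM in BAT cells (log2 difference -3.46 ± 0.0713 SE, adjusted p 4.21e-17). Ifi205 had 74.0, 80.9 and 53.8 FPKM in WAT cells and 4.32, 3.97 and 2.59 FPKM in BAT cells, and Ctla2a had 126, 129 and 108 FPKM in WAT cells and 7.88, 9.32 and 9.03 FPKM in BAT cells. These last genes stand in families of close copies, so the share of reads from each copy is uncertain. All 29 genes named by the size of their difference had the same sign of difference in control cells.

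**Figure D2:**
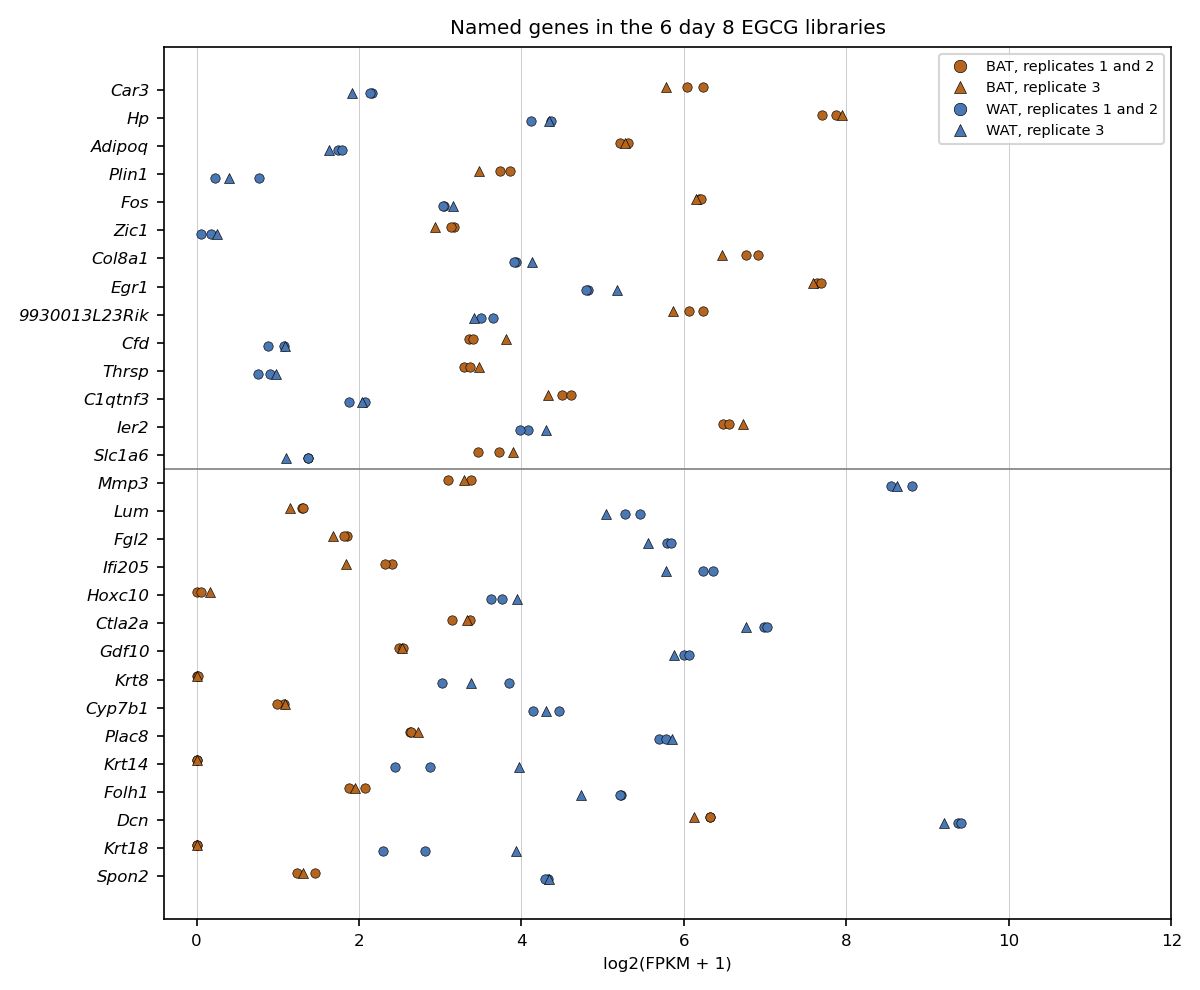
14 named genes high in BAT and the 15 highest in WAT, 1 row per gene and 1 point per library, on a log2(FPKM + 1) x axis. Brown points are BAT and blue points WAT, circles are replicates 1 and 2 and triangles replicate 3. No gene's BAT and WAT points overlap within a table, which was a condition for being named here. Krt14 and Krt18 stand at 0 in all 3 BAT libraries.

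Positional genes separated the depots in both directions. Hox genes, which give cells their address along the body axis, were called higher in BAT for 18 of 27 tested and higher in WAT for 6. The 12 Hox genes left stayed below the filter. The sign followed the place in the cluster: of 17 genes with paralog numbers 1 to 7, which mark anterior positions, 15 were called higher in BAT and none higher in WAT (Hoxc6 and Hoxd4 were not called). Of 10 genes with paralog numbers 8 to 13, 6 were called higher in WAT and 3 higher in BAT (Hoxb9, Hoxd8 and Hoxd9). Hoxc10 (chromosome 15, 102797227 to 102802324) had 12.5, 11.3 and 14.4 FPKM in WAT cells and 0, 0.0396 and 0.121 FPKM in BAT cells (log2 difference -3.70 ± 0.0863 SE, adjusted p 2.13e-16). Its BAT libraries held 0, 4 and 4 reads. Hoxa10 (-2.29), Hoxc9 (-2.04), Hoxa9 (-1.64) and Hoxc8 (-0.81) followed, and Hoxc11 was at 0 in all BAT libraries and at 0.599, 0.708 and 1.80 FPKM in WAT. On the anterior side Hoxa5 had 12.2, 12.6 and 11.6 FPKM in BAT cells and 2.97, 2.98 and 2.72 FPKM in WAT cells (log2 difference 1.76 ± 0.0938 SE, adjusted p 1.62e-11), followed by Hoxa3 (1.38), Hoxa2 (1.15) and Hoxc5 (0.98). Hoxc5 was higher in BAT with EGCG and not in controls, where its difference was -0.19 (change 1.17, adjusted p 3.93e-05).

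**Figure D3:**
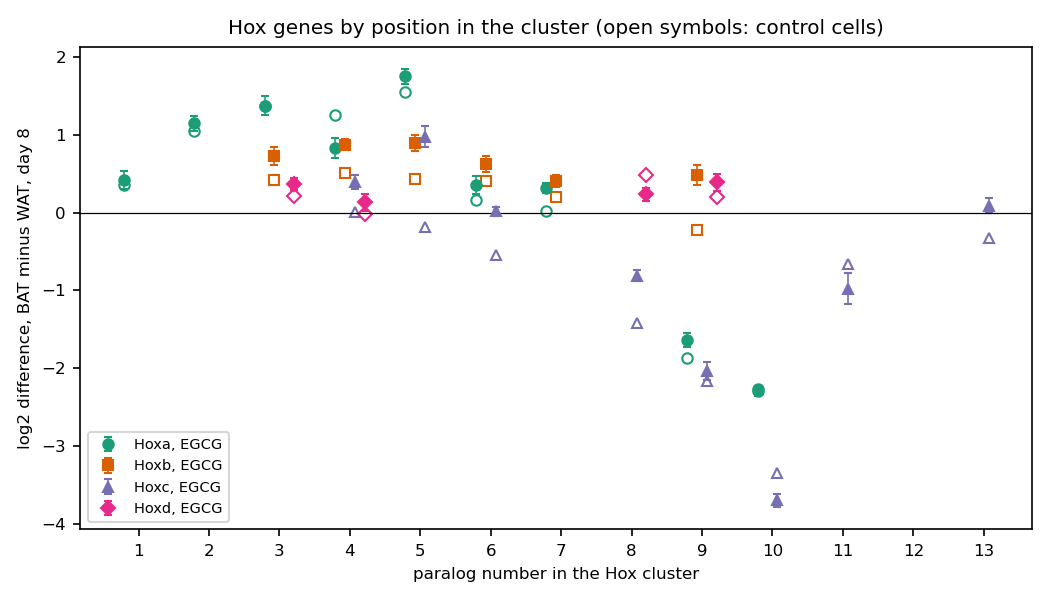
Hox genes by paralog number. The x axis is the paralog number in the cluster and the y axis the log2 difference, BAT minus WAT, on day 8; colour and shape give the cluster, filled symbols with SE bars are EGCG-treated cells and open symbols control cells, and the genes from Hoxc8 to Hoxc11 with Hoxa9 and Hoxa10 lie below 0 in both.

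Other regulators of position also separated the depots, and those named here had the same sign in controls. Zic1 (chromosome 9, 91252896 to 91260648), a zinc finger factor of the dorsal body axis used as a marker of interscapular fat, had 8.00, 7.78 and 6.64 FPKM in BAT cells and 0.130, 0.0403 and 0.187 FPKM in WAT cells (log2 difference 2.92 ± 0.0790 SE, adjusted p 9.78e-16). Six2 (1.77) and Pax3 (1.25), factors of head, somite and muscle lineages, were at least 2-fold higher in BAT. Irx1, an Iroquois factor, had 22.3, 20.2 and 24.5 FPKM in WAT cells and 2.75, 3.36 and 3.88 FPKM in BAT cells (log2 difference -2.43 ± 0.102 SE, adjusted p 4.99e-13), and Irx2 (-1.79), Emx2 (-1.31) and Osr2 (-1.15) were also at least 2-fold higher in WAT. In all, 13 of 31 tested developmental factors were called higher in BAT and 9 higher in WAT. The glutamate transporter gene Slc1a6 had 10.0, 12.2 and 13.9 FPKM in BAT cells and 1.58, 1.59 and 1.15 FPKM in WAT cells (log2 difference 2.42 ± 0.11 SE, adjusted p 1.81e-12). The uncharacterised gene 9930013L23Rik had 65.9, 74.6 and 57.1 FPKM in BAT cells and 10.3, 11.5 and 9.63 FPKM in WAT cells (log2 difference 2.54 ± 0.190 SE, adjusted p 2.27e-09). Of the genes named so far by the size of their difference, Zic1, Hoxc10, Fgl2 and Cyp7b1 have another annotated gene within or across their span, introns included. Whether the transcripts share sequence was not examined, and whether the counting used strand is not given in the sources used here.

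Genes of the mature adipocyte were higher in BAT cells. Of 20 genes, 19 were called higher in BAT and 1 higher in WAT, with a median of 0.92. Adipoq (chromosome 16, 23146609 to 23158101), which encodes the fat hormone adiponectin, had 38.7, 36.1 and 37.7 FPKM in BAT cells and 2.34, 2.45 and 2.10 FPKM in WAT cells (log2 difference 3.55 ± 0.0999 SE, adjusted p 1.41e-15). Perilipin 1 (Plin1), the coat protein of the lipid droplet, had 13.5, 12.3 and 10.1 FPKM in BAT cells and 0.171, 0.707 and 0.321 FPKM in WAT cells (log2 difference 3.22 ± 0.113 SE, adjusted p 3.55e-14). Car3, a carbonic anhydrase abundant in fat, had 74.5, 64.5 and 53.9 FPKM in BAT cells and 3.48, 3.38 and 2.78 FPKM in WAT cells (log2 difference 3.95 ± 0.150 SE, adjusted p 1.24e-13). The libraries of the depots did not overlap for any of these genes, which within a table was a condition for naming them. WAT cells were at or below 3.48 FPKM in all of them. The fatty acid binding protein gene Fabp4 was the most abundant of the list in BAT cells, with 225, 223 and 235 FPKM in BAT cells and 117, 133 and 116 FPKM in WAT cells (log2 difference 0.89 ± 0.0912 SE, adjusted p 1.53e-07). Lipid uptake receptor Cd36 (1.69), hormone-sensitive lipase Lipe (1.63), the complement protease adipsin (Cfd, 2.51), Dgat2 (1.12) and Gpd1 (1.11) were at least 2-fold higher in BAT. On the scale of log2(FPKM + 0.1) the median of the list was 1.79. The regulators differed less, with 0.32 for Pparg and 0.61 for Cebpa. Lipoprotein lipase (Lpl), the enzyme that frees fatty acids from circulating triglyceride, was the exception, with 499.8, 548 and 447 FPKM in WAT cells and 149, 144 and 130.4 FPKM in BAT cells (log2 difference -1.81 ± 0.0902 SE, adjusted p 6.40e-12).

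The levels behind these differences were below those of control cells in both depots. All 20 adipocyte genes had every EGCG library of day 8 below every control library of day 8, which held for 1562 of all 13925 genes. Adipoq had 374, 402 and 399.7 FPKM in BAT and 214, 246 and 195 FPKM in WAT controls, and Car3 had 1895, 1904 and 1649.8 FPKM in BAT and 1197, 1358 and 993 FPKM in WAT controls. In controls 18 of the 20 genes were called higher in BAT and 1 higher in WAT, with a median of 0.90. Against controls, EGCG shifted the depot difference towards BAT for 10 of the 20 genes and towards WAT for 7. These counts depended on the scale, with 13 and 3 at a pseudocount of 0.1 and 12 and 3 with voom on recovered reads. For Car3 the difference changed by 3.32, adjusted p 3.39e-10, for Adipoq by 2.70, adjusted p 3.04e-11 and for Plin1 by 1.97, adjusted p 8.57e-09. For Lpl the change was -1.48, adjusted p 1.89e-08, from -0.33 in controls. The list's summed level was 611 to 634 FPKM in BAT and 632 to 748 FPKM in WAT, where Lpl made up most of the sum, against 14423 to 15123 and 8259 to 9412 FPKM in the controls. Because PPARG with its partner RXR, the master regulator of these genes, binds a direct repeat of AGGTCA with 1 base between the copies, the promoters of the list were searched for it on both strands with at most 1 mismatch in each copy. Such letters lay in 2.40% of all 32851 promoters and in 1 of the 14 list genes found in the table, Cd36, whose promoter (GRCm38.p6, chr5:17835847-17836146, minus strand) is shown with the match in capitals, at -63 to -51 from the start. The match reads on the strand opposite to the gene.
Cd36: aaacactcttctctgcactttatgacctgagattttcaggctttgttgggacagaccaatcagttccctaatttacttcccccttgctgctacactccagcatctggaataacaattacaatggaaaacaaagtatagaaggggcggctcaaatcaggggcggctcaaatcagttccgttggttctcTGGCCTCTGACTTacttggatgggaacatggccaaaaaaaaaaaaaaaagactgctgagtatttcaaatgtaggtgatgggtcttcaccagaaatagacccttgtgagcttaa

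Of 14 fat synthesis genes, 5 were called higher in BAT and 3 higher in WAT, shares of the list near those of all genes tested (30.7% and 16.2%). Thrsp, a lipogenic spot 14 protein, had 8.79, 9.33 and 10.1 FPKM in BAT cells and 0.693, 0.864 and 0.964 FPKM in WAT cells (log2 difference 2.50 ± 0.217 SE, adjusted p 1.76e-08), and the stearoyl-CoA desaturase Scd1 had 214, 209 and 195 FPKM in BAT cells and 57.4, 60.9 and 59.7 FPKM in WAT cells (log2 difference 1.78 ± 0.0695 SE, adjusted p 1.87e-13). Its paralog Scd2 went the other way, with 176, 178 and 187 FPKM in WAT cells and 119.6, 117 and 122 FPKM in BAT cells (log2 difference -0.59 ± 0.0364 SE, adjusted p 1.36e-10). Fatty acid synthase (Fasn, 0.32, adjusted p 0.067) and Acly (0.13, adjusted p 0.53) were not called. Haptoglobin (Hp, chromosome 8, 112099030 to 112103072), an acute phase protein that fat cells secrete, had 233, 207 and 246 FPKM in BAT cells and 16.4, 19.6 and 19.2 FPKM in WAT cells (log2 difference 3.56 ± 0.0998 SE, adjusted p 1.41e-15).

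The brown fat programme set the depots apart in control cells and much less with EGCG. Ucp1, the defining marker of brown adipocytes, was at 0 reads in all 3 BAT libraries and had 1 read in 1 WAT library, which allows at most 3 reads in a BAT library, whereas BAT controls had 6.97, 6.15 and 4.20 FPKM. Of 13 thermogenic genes tested, 12 were called higher in BAT in controls (median 1.87) and 5 with EGCG (median 0.043). For 12 of 13 the difference was shifted towards WAT by EGCG, with a median change of -1.39. With voom on recovered reads this held for 9 of 13, with a median change of -0.714. Here and in the other lists a gene could pass the filter through the control libraries of a single depot, BAT or WAT. For such a gene a smaller difference with EGCG was fixed in advance. Cidea had 0.0183, 0.0812 and 0.0498 FPKM in BAT cells and 0.0661, 0.0216 and 0.0529 FPKM in WAT cells, against 11.1, 11.0 and 8.51 FPKM in BAT and 0, 0.0642 and 0.259 FPKM in WAT controls. Adrb3, the beta 3 adrenergic receptor, kept the largest difference, with 4.5, 4.35 and 4.83 FPKM in BAT cells and 0.392, 0.386 and 0.683 FPKM in WAT cells (log2 difference 1.91 ± 0.0886 SE, adjusted p 2.25e-12), from a far lower level than the 94.0, 102 and 98.5 FPKM of BAT controls. Cox7a1, a cytochrome c oxidase subunit of heart, muscle and brown fat, was called in opposite directions. It had 7.98, 6.96 and 8.96 FPKM in WAT cells and 2.87, 3.64 and 4.30 FPKM in BAT cells with EGCG (log2 difference -0.97 ± 0.131 SE, adjusted p 5.46e-06) and 191, 189.8 and 176 FPKM in BAT and 22.5, 19.7 and 17.6 FPKM in WAT controls (difference 3.16, change -4.13, adjusted p 4.44e-12). All 11 brown identity genes tested were called higher in BAT in controls, and 4 with EGCG, all of them transcription factors: Zic1, Lhx8 (0.75), Ebf2 (0.89) and Ebf3 (0.98). The enzyme genes Oplah (-0.68, controls 1.18) and Acot2 (-0.50, controls 1.07) of this list were called higher in WAT with EGCG, and Prdm16 (0.15, adjusted p 0.11), which drives brown fat fate, was not called.

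Mitochondrial genes showed the same contrast between treatments. All 22 respiratory chain genes were called higher in BAT in controls, with a median of 1.32. With EGCG 15 of 22 were called higher in BAT and none in WAT, with a median of 0.18. The change of the difference was called towards WAT for 22 of 22, and for 1 of 22 with WAT replicate 3 as deposited. Cyc1, cytochrome c1 of complex III, had 73.4, 70.2 and 88.6 FPKM in BAT cells and 58.6, 58.5 and 64.0 FPKM in WAT cells (log2 difference 0.35 ± 0.0539 SE, adjusted p 2.76e-05), against 244, 244 and 264 FPKM in BAT and 77.8, 86.4 and 91.8 FPKM in WAT controls. The small EGCG difference depended on the scaling: 9 of 22 were called with median-ratio scaling, and 8 of 22 from the first table alone. Fatty acid oxidation genes had a median of 0.029 with EGCG and 1.27 in controls, where 16 of 17 were called higher in BAT. With EGCG 4 were called higher in BAT and 3 higher in WAT, and the median was -0.023 with median-ratio scaling. Acaa2, a thiolase of that pathway, had 48.2, 43.8 and 51.2 FPKM in WAT cells and 32.3, 31.7 and 36.2 FPKM in BAT cells (log2 difference -0.50 ± 0.0792 SE, adjusted p 3.30e-05) and 1.32 in controls.

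Of 16 genes that respond to low oxygen, 14 were called higher in BAT in controls (median 0.77). With EGCG none was, 9 were called higher in WAT and 7 were not called (median -0.28). The difference was shifted towards WAT by EGCG for 15 of 16, and for 4 of 16 with WAT replicate 3 as deposited. Ndufa4l2, which lowers complex I activity in hypoxia, had 177, 179 and 221 FPKM in WAT cells and 50.3, 44.5 and 62.6 FPKM in BAT cells (log2 difference -1.86 ± 0.108 SE, adjusted p 5.33e-11), against 290.0, 312 and 330.2 FPKM in BAT and 180.4, 169.9 and 193 FPKM in WAT controls. Bnip3 (-0.73, controls 1.59), a mitophagy receptor, and Pdk1 (-0.71, controls 1.0), which keeps pyruvate out of the mitochondria, changed sign in the same way. The glycolytic genes Ldha (-0.10), Eno1 (-0.054) and Aldoa (-0.026) were not called. The WAT direction of the median was also lost with that library as deposited, at 0.17, a setting that moved the median of all genes from 0.059 to 0.40.

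**Figure D4:**
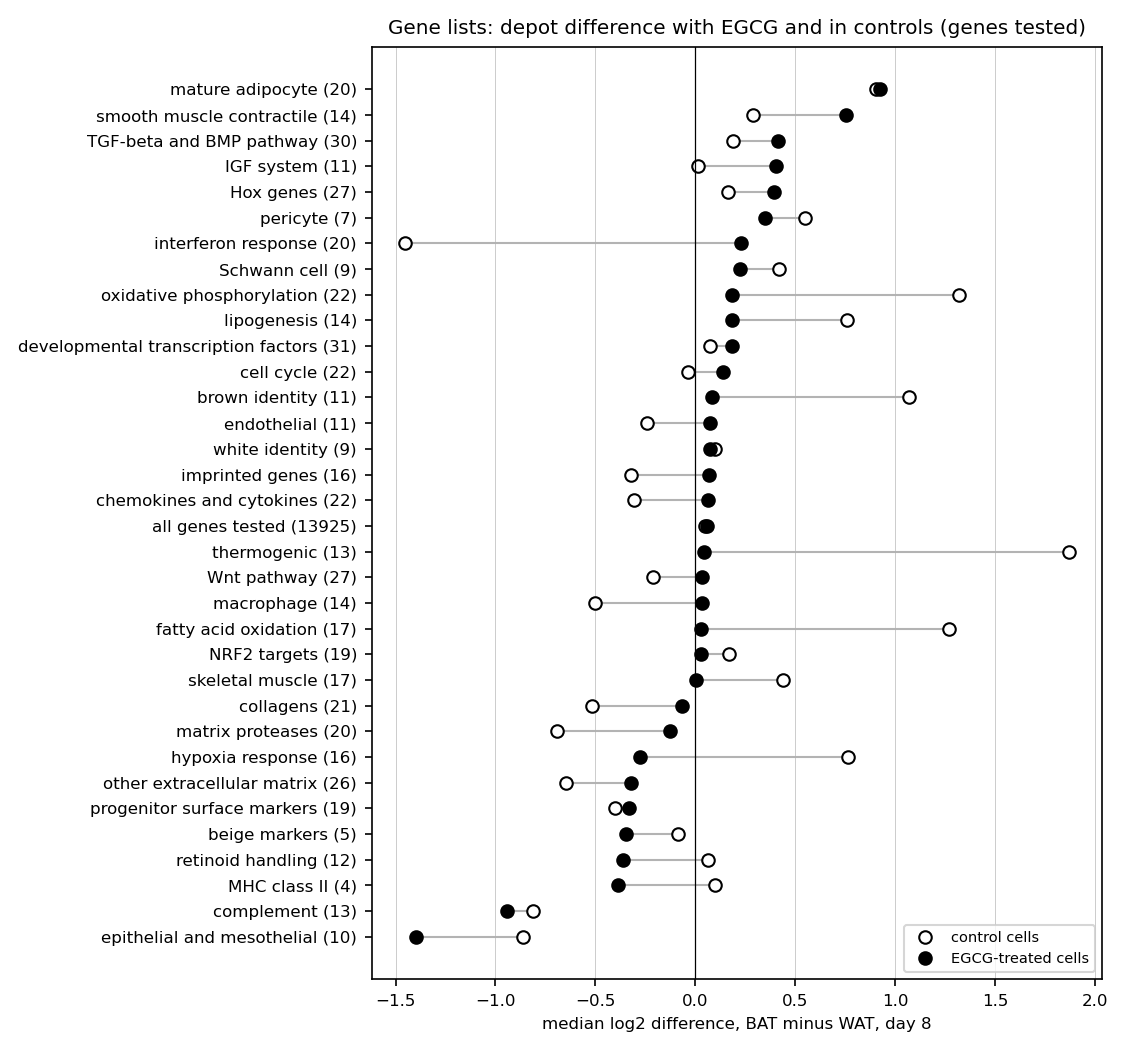
Median log2 difference, BAT minus WAT, of each gene list on day 8 in EGCG-treated cells (filled) and control cells (open), ordered by the EGCG value, with the number of genes tested in brackets. Thermogenic, oxidative phosphorylation and fatty acid oxidation lists lie above 1 in controls and at 0.029 to 0.18 with EGCG, and the interferon response list moves from -1.45 to 0.23.

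Of all lists, interferon-induced genes had the largest median change of the depot difference between controls and EGCG (1.61). All 20 tested were called higher in WAT in controls. With EGCG 6 were called higher in BAT and 3 higher in WAT, shares near those of all genes tested (30.7% and 16.2%). The depot difference was shifted towards BAT for 20 of 20, against 23.8% of all genes tested. A gene of this list could pass the filter through WAT control libraries alone, and for such a gene a smaller difference with EGCG was fixed in advance. Ifi27l2a had 5.03, 3.27 and 10.4 FPKM in BAT cells and 0.208, 0.325 and 1.20 FPKM in WAT cells (log2 difference 2.13 ± 0.233 SE, adjusted p 4.00e-07), and the ubiquitin-like protein gene Isg15 had 26.3, 31.4 and 22.0 FPKM in BAT cells and 15.5, 15.5 and 17.3 FPKM in WAT cells (log2 difference 0.68 ± 0.154 SE, adjusted p 0.0012), against 46.9, 30.8 and 42.9 FPKM in BAT and 136, 122 and 121 FPKM in WAT controls. The values of Ifit1 in BAT, 4.62, 11.1 and 4.10 FPKM, were uneven. Ddx58 (0.48), the RIG-I sensor, was called higher in BAT, whereas Bst2 (-0.35), Oas1a (-0.35) and Psmb8 (-0.44) were called higher in WAT.

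Of 22 chemokine and cytokine genes, 8 were called higher in BAT and 5 higher in WAT, shares near those of all genes tested (30.7% and 16.2%). Calls of at least 2-fold were more frequent, with 5 in each direction, against 2.76% of all genes tested for both directions together. Interleukin 6 (Il6) had 17.8, 17.6 and 14.4 FPKM in BAT cells and 2.62, 2.98 and 3.06 FPKM in WAT cells (log2 difference 2.18 ± 0.179 SE, adjusted p 8.21e-09), and its change of difference against controls was 1.55, adjusted p 5.03e-05. The neutrophil attractant Cxcl1 (1.22), the leukaemia inhibitory factor gene Lif (1.10) and the receptor antagonist Il1rn (1.50) were also at least 2-fold higher in BAT. Ccl2, which attracts monocytes, was called in opposite directions, with 33.6, 42.2 and 40.4 FPKM in BAT cells and 17.6, 15.4 and 18.7 FPKM in WAT cells with EGCG (log2 difference 1.12 ± 0.156 SE, adjusted p 7.59e-06) and 4.49, 6.34 and 6.61 FPKM in BAT and 24.1, 15 and 14.1 FPKM in WAT controls (change 2.56, adjusted p 1.92e-08). In WAT cells the eosinophil and monocyte attractants Ccl8 (-2.09) and Ccl11 (-1.73), and Cxcl14 (-1.72), Il33 (-1.48) and Cxcl12 (-1.06) were higher. Complement genes were called higher in WAT for 7 of 13 and higher in BAT for 3, with a median of -0.94. In controls 9 were called higher in WAT and 3 higher in BAT, with a median of -0.81. C4b had 28, 31.8 and 27.2 FPKM in WAT cells and 6.39, 5.80 and 5.90 FPKM in BAT cells (log2 difference -2.09 ± 0.0675 SE, adjusted p 1.11e-14), and C1s (-1.98), C1ra (-1.58), C2 (-1.01) and C3 (-0.94) went the same way. C1qtnf3, a C1q-related adipokine, is on this list and counted among the 3 called higher in BAT, although it is not part of the cascade. It had 21.7, 23.4 and 19.2 FPKM in BAT cells and 3.21, 2.66 and 3.11 FPKM in WAT cells (log2 difference 2.49 ± 0.135 SE, adjusted p 1.93e-11).

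**Figure D5:**
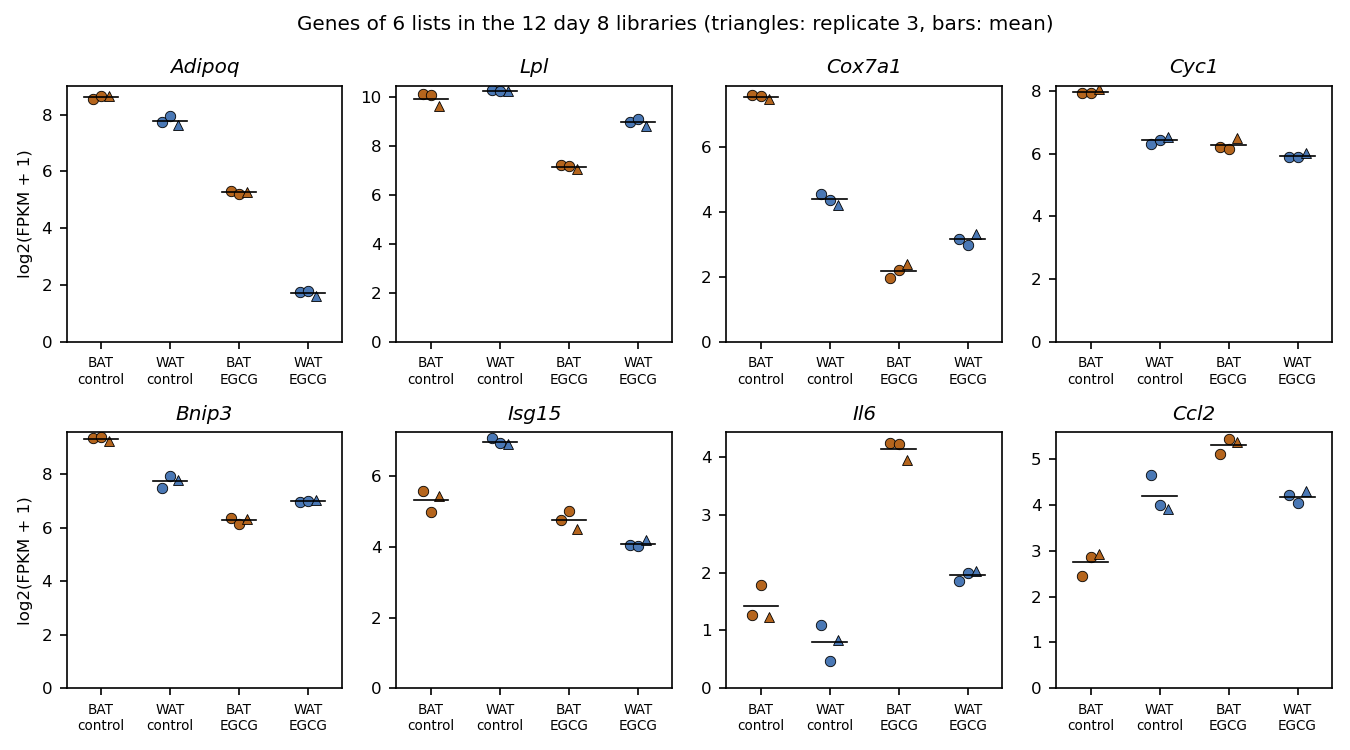
Levels of 8 genes in the 12 day 8 libraries, on a log2(FPKM + 1) y axis that starts at 0, with the 4 groups on the x axis. Points are libraries (triangles are replicate 3), bars are means, brown is BAT and blue WAT; Cox7a1, Bnip3, Isg15 and Ccl2 have their depot order turned between control and EGCG-treated cells, whereas Adipoq is higher in BAT and Lpl higher in WAT in both.

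Immediate early genes, which are switched on within minutes of a stimulus, gave 3 of the 15 highest differences. Fos (chromosome 12, 86814840 to 86818223) had 71.8, 73.1 and 69.7 FPKM in BAT cells and 7.25, 7.19 and 7.91 FPKM in WAT cells (log2 difference 3.10 ± 0.0742 SE, adjusted p 2.27e-16). Egr1 had 199, 204 and 191 FPKM in BAT cells and 27.1, 26.8 and 35.3 FPKM in WAT cells (log2 difference 2.71 ± 0.157 SE, adjusted p 5.49e-11), and Ier2 had 88.0, 93.1 and 105 FPKM in BAT cells and 15.9, 14.8 and 18.7 FPKM in WAT cells (log2 difference 2.46 ± 0.0634 SE, adjusted p 5.39e-16). The BAT libraries of Fos lay close together and all above WAT (10.0-fold in the first table, 8.81-fold in the second). Controls had the same direction for all of these genes, at 2.64, 2.32 and 1.66. On day 4 with EGCG the difference was 0.62 for Fos and 0.33 for Ier2, and for Egr1 it was -0.29 and not called (adjusted p 0.13). The change from day 4 to day 8 was 2.49, adjusted p 8.18e-12 for Fos, 2.99, adjusted p 1.11e-08 for Egr1 and 2.13, adjusted p 8.18e-12 for Ier2. Mean levels with EGCG fell in WAT from day 4 to day 8, from 24.4 to 7.45 FPKM for Fos, 154 to 29.7 for Egr1 and 51.8 to 16.5 for Ier2. In BAT they rose from 37.7 to 71.5, from 126 to 198 and from 65.9 to 95.4 FPKM. The annotation places Gm17507 over Egr1.

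Contractile genes were higher in BAT cells, 11 of 14 against 2 higher in WAT, with a median of 0.75 and 0.29 in controls. Calponin 1 (Cnn1), which binds actin in smooth muscle and myofibroblasts, had 9.98, 11.1 and 12.8 FPKM in BAT cells and 2.03, 1.93 and 2.24 FPKM in WAT cells (log2 difference 2.00 ± 0.115 SE, adjusted p 4.44e-11). Smooth muscle actin (Acta2) was abundant, with 755, 841 and 989 FPKM in BAT cells and 329.6, 314 and 409 FPKM in WAT cells (log2 difference 1.29 ± 0.142 SE, adjusted p 4.11e-07), and Actg2 (1.83), Myl9 (1.07), Tpm2 (0.92) and Tagln (0.82) followed. The 2 genes of the list called higher in WAT were Myh11 and Des. Myh11, a smooth muscle myosin, had 4.25, 4.18 and 3.64 FPKM in WAT cells and 2.40, 3.17 and 3.29 FPKM in BAT cells (log2 difference -0.35 ± 0.0899 SE, adjusted p 0.0032), and Des was at -0.28. Among 7 pericyte genes Cspg4, the NG2 proteoglycan, had 9.84, 11.3 and 10.3 FPKM in BAT cells and 1.54, 1.49 and 1.65 FPKM in WAT cells (log2 difference 2.16 ± 0.0913 SE, adjusted p 5.39e-13), and Notch3 (0.96) and Mcam (0.46) were called higher in BAT, whereas Abcc9 (-0.71) and Kcnj8 (-0.69) were called higher in WAT.

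Growth factor pathways of the TGF-beta and BMP family were higher in BAT for 20 of 30 genes and higher in WAT for 8, with a median of 0.41. Among ligands Tgfb3 had 59.5, 64.5 and 63.2 FPKM in BAT cells and 20.4, 19.8 and 19.1 FPKM in WAT cells (log2 difference 1.61 ± 0.0710 SE, adjusted p 1.02e-12), and Gdf15 (1.38), Bmp4 (0.96) and Inhba (0.86) were called in the same direction, with Gdf10 and Bmp6 (-0.53) opposed. Of the secreted BMP antagonists Grem1 had 27.4, 29.8 and 24.9 FPKM in BAT cells and 4.99, 4.13 and 5.01 FPKM in WAT cells (log2 difference 2.31 ± 0.133 SE, adjusted p 4.80e-11), whereas Chrd (-0.71) and Chrdl1 (-0.84) were higher in WAT. The BMP target genes Id1 (1.21), Id2 (0.24), Id3 (1.26) and Id4 (1.06) and the inhibitory Smads Smad6 (1.68) and Smad7 (1.05) were each called higher in BAT. Id3 had 137, 135 and 163 FPKM in BAT cells and 59.6, 56.2 and 64.2 FPKM in WAT cells, and its libraries did not overlap between depots.

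Wnt pathway genes were called higher in BAT for 10 of 27 and higher in WAT for 7, near the shares of all genes tested (30.7% and 16.2%), and their median of 0.035 became -0.018 with median-ratio scaling. The ligand Wnt5a (1.03), the enhancer Rspo3 (1.52) and the receptor Fzd5 (1.01) were at least 2-fold higher in BAT. The secreted inhibitor Sfrp2 had 64.0, 68.5 and 71.8 FPKM in WAT cells and 8.02, 8.82 and 11.2 FPKM in BAT cells (log2 difference -2.75 ± 0.104 SE, adjusted p 1.14e-13), with the inhibitor Dkk2 (-1.13) and the ligand Wnt16 (-1.11) also higher in WAT. The feedback target Axin2 was higher in WAT (-0.76). In the insulin-like growth factor system, 6 of 11 genes were called higher in BAT and 2 higher in WAT, and the latter were binding proteins. Igfbp6 had 333, 325 and 336 FPKM in WAT cells and 98.1, 100.2 and 117 FPKM in BAT cells (log2 difference -1.65 ± 0.125 SE, adjusted p 2.70e-09), and Igfbp3 was at -1.54. Igfbp5 (0.49), Igfbp7 (0.42) and Igfbp4 (0.42) were higher in BAT, as were Igf2 (0.40) and its clearance receptor Igf2r (0.71).

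Markers of other cell types were read beside these groups. The epithelial keratins Krt8, Krt18 and Krt14 were present in WAT cultures and at or near 0 in BAT cultures. Krt8 had 13.3, 7.12 and 9.41 FPKM in WAT cells and 0, 0.0105 and 0 FPKM in BAT cells, Krt18 had 6.02, 3.92 and 14.3 FPKM in WAT cells and 0, 0 and 0 FPKM in BAT cells, and Krt14 had 6.33, 4.42 and 14.6 FPKM in WAT cells and 0, 0 and 0 FPKM in BAT cells. Against a floor of 3 reads per library, Krt14 was at least 146-fold and Krt18 at least 115-fold lower in BAT. Epcam, an epithelial adhesion protein, had 4.32, 2.32 and 2.72 FPKM in WAT cells and 0, 0.0649 and 0.0852 FPKM in BAT cells. Of 10 epithelial and mesothelial genes tested 8 were called higher in WAT and 1 in BAT, the latter at least 2-fold (highest difference of the list 1.01). The summed level was 33.8 to 62.0 FPKM in WAT against 8.81 to 12.1 FPKM in BAT, so the list as a whole was not at 0 in BAT. Their part in the other WAT differences was not tested. The macrophage marker Ptprc stayed below the filter and Csf1r was at 0.840, 1.21 and 0.838 FPKM in BAT and 1.28, 1.46 and 1.53 FPKM in WAT. The summed macrophage list was 73.0 to 73.4 FPKM in BAT and 68.2 to 78.5 FPKM in WAT, with 2 of 14 called in each direction. Endothelial markers Pecam1 (0.20) and Cdh5 (0.18, adjusted p 0.054) had small differences, and 4 of 11 were called higher in BAT and 2 higher in WAT, with sums of 49.2 to 54.4 and 44.1 to 54.4 FPKM. Sox10, the defining factor of Schwann cells, had 27.7, 25.7 and 27.2 FPKM in BAT cells and 17.7, 17.5 and 21.8 FPKM in WAT cells (log2 difference 0.49 ± 0.1 SE, adjusted p 5.01e-04), and 4 of 9 markers were called higher in BAT and 1 higher in WAT. For pericytes the sums were 73.2 to 78.2 FPKM in BAT and 43.4 to 47.2 FPKM in WAT. Skeletal muscle genes had sums of 79.7 to 110.4 and 87.1 to 96.9 FPKM, Myod1 below the filter, Myog not called (-0.18) and 1 of 17 called.

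The depot difference with EGCG was compared with that in controls by an interaction term. In control cells 8222 genes (59%) were called between depots, 901 of them at least 2-fold different. The difference itself changed for 6436 genes (46.2%), 3313 shifted towards BAT and 3123 towards WAT by EGCG. Of the 385 genes called and at least 2-fold different with EGCG, 309 were also called in the same direction in controls, 23 were called in the opposite direction and 53 were not called. Of the 901 control genes, 494 were called in the same direction with EGCG, 78 in the opposite direction and 329 were not called. Control and EGCG libraries were separate, so these counts share no sample, although all groups share 1 estimate of the spread.

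Between day 4 and day 8 with EGCG the depot difference changed for 4156 genes (29.8%). The change was towards BAT for 11.2% and towards WAT for 18.6% of all genes, and on day 4 itself 38.9% were called higher in BAT and 17.6% higher in WAT. Cell cycle genes changed together. On day 4 all 22 had been called higher in BAT, with a median of 1.16. On day 8, 6 of 22 were called (median 0.14; 2 of 22 with quantile normalization), and the difference was smaller on day 8 for 22 of 22. Skeletal muscle genes had been higher in WAT on day 4 for 16 of 17 (median -1.80), and the difference was reduced for 16 on day 8. The difference of Adipoq changed by 0.0073, adjusted p 0.98, and that of Car3 grew by 2.77, adjusted p 1.61e-08. Mmp3 moved further towards WAT, by -3.08, adjusted p 2.31e-09, and Lum (-0.90), Fgl2 (-1.43) and Plac8 (-1.55) did likewise.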

How the data were processed

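RNA sequencing values of 24 libraries (8 groups of 3, by depot, treatment and day) were deposited by the authors as FPKM values in 2 tables, the first with replicates 1 and 2 of each group and the second with replicate 3. Per the labels, the submitters' processing notes name FastQC 0.11.9, HISAT2 2.2.0, HTSeq 0.11 and mm9, with no role or order, and strand use in counting is not given in the sources used here. All 37310 genes of each table matched a mouse NCBIM37 annotation, and every library gave whole reads for 100% of values at a tolerance of 0.01 reads, from which the depths were computed. The floor of 3 reads per library covers counting error only.

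The 6 libraries were taken by their labels, and the members and gene lists were chosen with earlier results of these data known. In WAT EGCG day 8 replicate 3, 5 genes were left out and the FPKM values rescaled. Genes with at least 1 FPKM in at least 3 libraries were kept (13925). limma 3.58.1 in R 4.3.3 was fitted to log2(FPKM + 1) of all 24 libraries, with 8 group means and a term for the table, a trended prior (15 residual degrees of freedom) and Benjamini-Hochberg adjustment, and an adjusted p under 0.05 counted as a call. The design gave 5 contrasts, the depot differences of the 3 sets of cells and the 2 differences between them. All SE and adjusted p values come from this fit, which was tested on simulated data. Named genes were the 15 highest and 15 lowest called differences with a mean of at least 5 FPKM and no overlap within either table, plus the largest called differences and the cell-type markers of the lists. Some genes that met these rules, 1 of them among those 30, are not reported here. Promoter sequences were copied from a RefSeq table of GRCm38.p6. Because the values are FPKM, count models were not used, apart from limma's voom on recovered reads as an alternative. The alternatives were another pseudocount, filter, scaling, sample set, table term and replicate block, the deposited scale of the 1 library, and leaving out each library.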

Additional observations from a re-analysis of the deposited data

Results flagged for a closer look

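The depot difference with EGCG differed from that in control cells, by the interaction term of the limma fit, for 17 of the 29 genes named by the size of their difference, against 46.2% of all genes tested. None of the 17 changed sign. These genes were chosen for the size of their difference with EGCG, which favours a larger gap there. Over all 20 mature adipocyte genes the difference was shifted towards BAT for 10 and towards WAT for 7 (13 and 3 with a pseudocount of 0.1). The difference was larger with EGCG by 3.32 on the log2 scale for Car3, 2.7 for Adipoq, 2.2 for Hp, 1.97 for Plin1, 1.74 for Thrsp and 1.46 for Cfd. Other genes higher in BAT widened by 1.06 (Slc1a6), 0.8 (Ier2), 0.689 (9930013L23Rik), 0.661 (Zic1) and 0.462 (Fos). Among genes higher in WAT, the interaction was -0.738 for Fgl2, -0.635 for Gdf10, -0.379 for Dcn, -0.356 for Hoxc10 and -0.324 for Folh1, which were further apart with EGCG, and 0.537 for Lum, which was less far apart.

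In the WAT EGCG day 8 library of replicate 3, 61.01% of the reads lay on the 5 genes that were left out, against at most 1.92e-05% in any other library.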

How the results depend on the processing

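Across 17 alternatives, all 490 values of the named genes kept their direction and their call, and the stricter filter (mean of 5 FPKM) left 3 without a value (Zic1, Slc1a6 and Hoxc10). These genes were picked as the largest called differences of the same libraries, so this outcome was likely from the start and gives no separate support. The number of genes called and at least 2-fold different, 385, became 812 with a pseudocount of 0.1, 948 with voom on recovered reads, 252 with the stricter filter and 578 with WAT EGCG day 8 replicate 3 as deposited. With that library as deposited, 5322 genes were called higher in BAT and 383 higher in WAT, the depot difference changed against controls for 2136 genes and between days for 718, and the median over all genes moved from 0.06 to 0.40, since the reads of the 5 genes then stay in its total. Without a term for the table the depot difference changed between days for 2545 genes, and the cause was not tested. Of the called genes, 65.4% were higher in BAT, against 54.7% with median-ratio scaling and 53.8% with quantile normalization. Leaving out each library in turn gave 5786 to 5976 genes called, 3765 to 3890 higher in BAT, 1970 to 2164 higher in WAT, 374 to 426 at least 2-fold different, 5960 to 6161 changed against controls and 3653 to 3833 changed between days.

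Of 578 list medians, 484 moved by less than the spread between replicates, 94 moved by more and 29, in 15 lists, changed sign. Apart from the library as deposited, sign changes fell in 8 lists: developmental transcription factors, brown identity, fatty acid oxidation, skeletal muscle, macrophage, endothelial, NRF2 targets and Wnt pathway. The oxidative phosphorylation calls fell from 15 to 9 with median-ratio scaling, 8 from the first table alone and 7 without the table term. Deviations of replicate 1 from the mean of replicates 1 and 2 had a correlation of -0.0162 between the depots. Over 28 pairs of groups it was -0.0852 to 0.0886. Replicate 3 was outside this check, which does not settle whether replicate numbers pair the samples. The replicate 3 libraries of BAT and WAT differed from each other with an SD of 0.395, against 0.645 between BAT replicates 1 and 3. With the replicate number as a block, 6507 genes were called (4253 higher in BAT and 2254 higher in WAT), 385 at least 2-fold different, 6399 changed against controls and 4117 between days. The libraries of replicate 3, at 17261888 and 16249394 reads, limit genes under 0.0869 and 0.0923 FPKM for a transcript of 2 kb, the level of 3 reads.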

Other observations

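Retinoid handling genes were called higher in WAT for 7 of 12 tested and higher in BAT for 2, with a median of -0.36 and 0.065 in controls. The chemerin gene Rarres2, an adipokine induced by retinoids, had 18.2, 20.8 and 29.5 FPKM in WAT cells and 4.70, 4.09 and 8.84 FPKM in BAT cells (log2 difference -1.83 ± 0.106 SE, adjusted p 5.63e-11). Aldh1a1 (-1.56), a retinaldehyde dehydrogenase, and the retinol carrier Rbp4 (-0.81) went the same way, whereas the dehydrogenase Aldh1a3 (1.44) and the retinoic acid-degrading Cyp26b1 (0.70) were higher in BAT. NRF2 target genes, which answer oxidative stress, were called for 5 of 19 in each direction, near the shares of all genes tested (30.7% higher in BAT and 16.2% higher in WAT). Gsta4 (1.43) and Nqo1 (0.61) were higher in BAT and the ferritin gene Fth1 (-0.50) and Gstm1 (-0.39) higher in WAT. Among imprinted genes 4 of 16 were called higher in BAT and 5 higher in WAT, with Mest at 0.90, Cdkn1c at -0.71, Peg3 at -0.69 and H19 at -0.67.

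White identity genes were called in both directions, 3 of 9 each. The 3 higher in WAT were Hoxc8, Hoxc9 and Hoxc10, and the 3 higher in BAT were Mest, the resistin gene Retn (0.92) and the leptin gene Lep (0.51). Of 5 beige markers tested, 3 were called higher in WAT (Tbx1, -0.92; Klhl13, -0.62; Slc27a1, -0.35) and none higher in BAT. Of 4 MHC class II genes tested, 2 were called higher in WAT, H2-Ab1 at -1.40 and H2-DMb1 at -0.59. Of the sex-linked genes only Xist passed the filter, and it was not called.

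A list of 24 immediate early genes was chosen after the values of Fos, Egr1 and Ier2 had been seen, and supports nothing by itself. Of these, 18 were called higher in BAT and 2 higher in WAT, 9 of the former at least 2-fold, with differences from -0.36 to 3.10, a median of 0.76 and a median of 0.51 in controls. The 13 further genes far above every other library in WAT EGCG day 8 replicate 3 held 0.883% of its remaining reads.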
